A study of Caenorhabditis elegans with 6 samples.

Results

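The genes described here are 10 small heat shock genes of the nematode Caenorhabditis elegans, 6 of the hsp-16 group and 4 of the hsp-12 group. They were taken by name from the deposited gene table, as 10 of the 22389 genes that carried a read count. Polyadenylated RNA of whole adult worms kept on solid media had been sequenced in 6 libraries. N2, the standard laboratory wild type, gave 3 libraries, and a strain of N2 background in which CRISPR had removed linc-4, a long intergenic non-coding RNA, gave the other 3. The labels give neither the extent of the deletion, nor the number of lines tested, nor the exact age or sex of the worms, and name no heat or other stress treatment. They do not say whether libraries of a genotype came from separate cultures, so p-values measure the spread between these libraries, which may be technical. In RNA of whole animals, fewer cells of a type and less RNA per cell cannot be told apart.

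Small heat shock proteins are chaperones built around an alpha-crystallin domain. Many of them, though not all, bind unfolding proteins without using ATP and hold them in a state from which ATP-dependent chaperones such as Hsp70 can refold them. In C. elegans the hsp-16 genes are nearly silent without stress and are strongly induced by heat through the heat shock factor HSF-1, which is why hsp-16.2 is a common stress reporter. The hsp-12 genes encode shorter proteins of the same family, with little tail on either side of the domain, and hsp-12.6 is a known target of the FOXO factor DAF-16 and of HSF-1.

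Total counts ran from 3736372 to 12790323 per library, and 3 reads stood for 0.769 CPM (the count scaled to a common library size) in the shallowest library and 0.228 CPM in the deepest. The targeted gene matched the labels, with 193, 345 and 234 reads of linc-4 in the wild type libraries and 5, 1 and 1 reads in the linc-4 libraries. Of 13778 genes with enough reads to be tested, 11.5% passed an adjusted p of 0.05 as higher in linc-4 and 7.18% as lower (limma-voom, Benjamini-Hochberg over all tested genes). With upper-quartile scaling in place of TMM, a scaling on trimmed means, the median log2 fold change moved up by 0.11, and the calls moved from 1591 higher and 989 lower to 2065 higher and 476 lower. Library markers also differed between the genotypes. Of 12 oocyte and eggshell genes 11 fell, with a summed level of 3116 to 3691 CPM in wild type and 2168 to 2285 CPM in linc-4, while 7 of 11 tested sperm genes rose, with a summed level of 226 to 332 CPM and 442 to 520 CPM. Of 5 tested genes of zygotic embryo expression 4 fell, with a summed 38.4 to 47.4 CPM in wild type and 18.8 to 21.7 CPM in linc-4. Among 10 body wall muscle genes 3 rose, from a summed 2180 to 2494 CPM in wild type to 2960 to 3245 CPM in linc-4. Intestine markers gave 2 higher and 2 lower of 10 (6045 to 7466 CPM and 5711 to 5826 CPM), and epidermis markers 2 higher of 8 (1585 to 2083 CPM and 1619 to 1703 CPM). The 8 neuron markers summed to 383 to 445 CPM in wild type and 387 to 408 CPM in linc-4. No marker was at 0 reads, and the part of these differences in the results on small heat shock genes was not tested.

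All 6 hsp-16 genes lie on chromosome V (positions as deposited, build WBcel235; exons from Ensembl release 115), each with 2 exons, in divergent pairs. The first pair is hsp-16.2 (WBGene00002016, 1804334 to 1804971, - strand) and hsp-16.41 (WBGene00002018, 1805178 to 1805875, + strand), with 206 bp between their starts and no gene in that gap. A second locus holds 4 genes in a row. There hsp-16.1 (WBGene00002015, 9087293 to 9087782, - strand) and hsp-16.48 (WBGene00002019, 9088131 to 9088617, + strand) are 348 bp apart. The next pair, hsp-16.49 (WBGene00002020, 9089280 to 9089766, - strand) and hsp-16.11 (WBGene00002017, 9090077 to 9090604, + strand), are 310 bp apart, and hsp-16.48 and hsp-16.49 face each other across 662 bp. The copies are close to each other in structure. hsp-16.48 and hsp-16.49 both have exons of 138 and 294 bp, and hsp-16.1 and hsp-16.11 share a second exon length of 312 bp. The deposited description gives each of these 2 pairs 1 protein name, and how the counting treated reads that fit more than 1 copy is not stated in the sources used here. The map of clustered genes shows these arrangements.

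**Figure D1:**
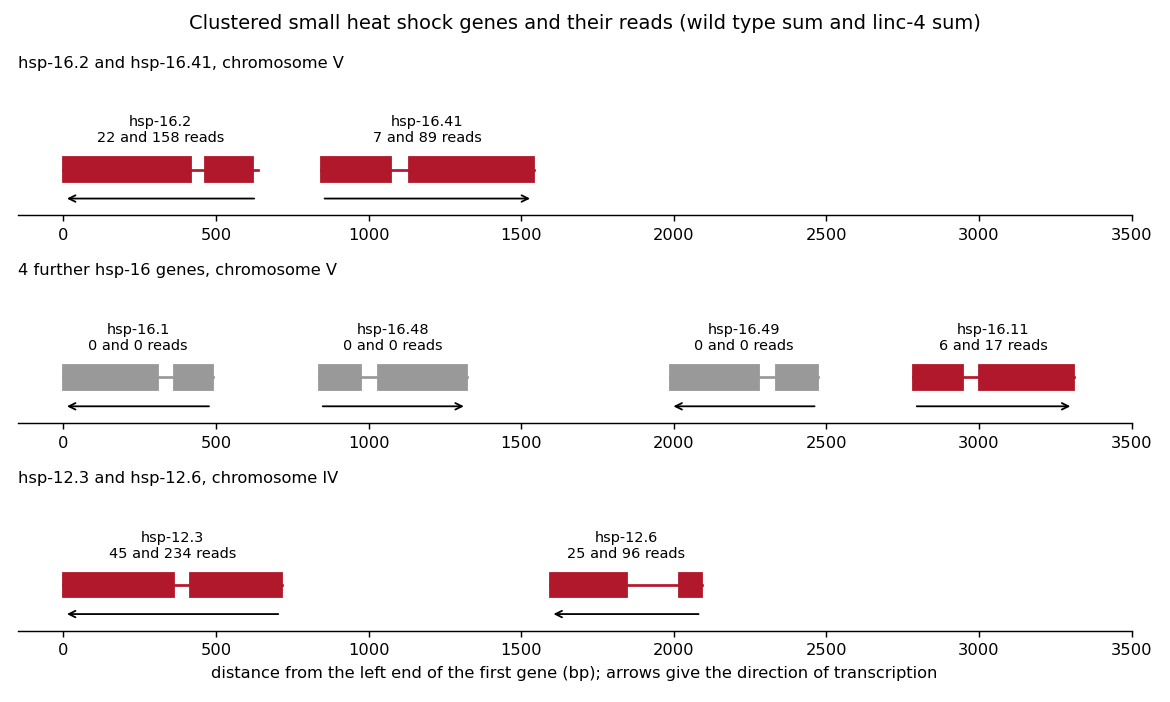
Positions of the clustered small heat shock genes, drawn to scale as distance in bp from the left end of the first gene of each locus (boxes are Ensembl exons inside the deposited gene span, arrows the direction of transcription). The reads under each name are summed over the 3 wild type and the 3 linc-4 libraries and are not scaled for depth. Genes without a read are grey: hsp-16.1, hsp-16.48 and hsp-16.49 have 0 reads beside a neighbour, hsp-16.11, with 6 and 17.

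Of the hsp-12 genes, hsp-12.3 (WBGene00002012, chromosome IV, 9444791 to 9445507) and hsp-12.6 (WBGene00002013, 9446385 to 9446884) lie 877 bp apart on the - strand. hsp-12.1 (WBGene00011906) lies on chromosome I from 10581538 to 10582609 on the - strand and has 2 exons. hsp-12.2 (WBGene00002011) lies on chromosome III from 8138090 to 8139645 on the + strand and has 3 exons. By its Ensembl position, C14B9.8 on the opposite strand overlaps 25 bp of the deposited span of hsp-12.2, and a 21 bp piRNA gene lies opposite hsp-12.1. The strandedness of the counting is not given, so reads in those stretches cannot be told apart.

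At the 4-gene locus reads were almost absent. hsp-16.1, hsp-16.48 and hsp-16.49, which encode heat-inducible small heat shock proteins, had 0 reads in all 6 libraries. By a floor of 3 reads, the counts assigned to each of them allow at most 0.769 CPM in the shallowest library and 0.228 CPM in the deepest; reads shared between copies may have been left out of those counts. hsp-16.11 had 2 reads in each wild type library and 8, 4 and 5 reads in linc-4 1 to 3. In CPM these were 0.513, 0.304 and 0.360 in wild type and 1.02, 0.592 and 0.380 in linc-4. The groups overlapped, since linc-4 3 lay below wild type 1. The ratio of summed reads, linc-4 over wild type and scaled for library size, was 1.64. Its 95% exact binomial interval, from 0.616 to 5.07, covers counting error only. hsp-16.11 had too few reads to enter the test across genes. An exact permutation test of its CPM, two-sided, gave p = 0.2, where 3 libraries against 3 cannot go below 0.1.

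At the other locus both genes rose. hsp-16.2, the gene used as a stress reporter, had 7, 9 and 6 reads in wild type and 59, 37 and 62 reads in linc-4, in the order of libraries 1 to 3 used throughout. Its levels were 1.79, 1.37 and 1.08 CPM in wild type and 7.53, 5.48 and 4.71 CPM in linc-4. Each linc-4 library lay above each wild type library. The mean went from 1.41 ± 0.360 CPM (SD, n = 3) to 5.91 ± 1.46 CPM, with a log2 fold change of 1.98 (SE 0.35; limma-voom adjusted p = 0.00276), a 3.95-fold difference. After scaling for library size, the ratio of summed reads, 22 in wild type and 158 in linc-4, was 4.15 (95% counting interval 2.65 to 6.81).

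Its divergent neighbour hsp-16.41, also a heat-inducible chaperone gene, had 3, 4 and 0 reads in wild type and 20, 21 and 48 reads in linc-4. The levels were 0.769, 0.608 and 0 CPM in wild type and 2.55, 3.11 and 3.64 CPM in linc-4. The groups did not overlap, and the wild type values sat at a few reads each. The log2 fold change was 3.07 (SE 0.60; limma-voom adjusted p = 0.00501), from 0.459 ± 0.406 CPM to 3.102 ± 0.546 CPM (SD, n = 3). The summed reads, 7 and 89, gave a ratio of 7.35 after scaling for library size, with a 95% counting interval from 3.42 to 18.8. The size of the change depended on the wild type libraries, since the log2 fold change was 2.03 without wild type 3, which had no read, and 3.69 without wild type 1. It was 1.53 on log2(CPM + 1) values, a scale that understates the change of low genes, and the call held in each case.

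The 6 hsp-16 genes together, a sum that does not depend on how the counted reads were divided among them, had 12, 15 and 8 reads in wild type and 87, 62 and 115 in linc-4. The summed level was 2.26 ± 0.819 CPM in wild type and 9.67 ± 1.26 CPM in linc-4 (SD, n = 3), a ratio of 4.27, with no overlap. hsp-16.2 and hsp-16.41 held 29 of these 35 reads in wild type and 247 of 264 in linc-4, where reads shared between copies of the 4-gene locus may have been left out. Within the pair, hsp-16.2 had 3.14 reads per hsp-16.41 read in wild type (95% counting interval 1.30 to 8.71) and 1.78 in linc-4 (1.36 to 2.33). These intervals overlap, but they pool the libraries and cover counting error only. By library, hsp-16.2 held 70, 69.2 and 100% of the pair's reads in wild type and 74.7, 63.8 and 56.4% in linc-4. A shift of balance within the pair was not tested.

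**Figure D2:**
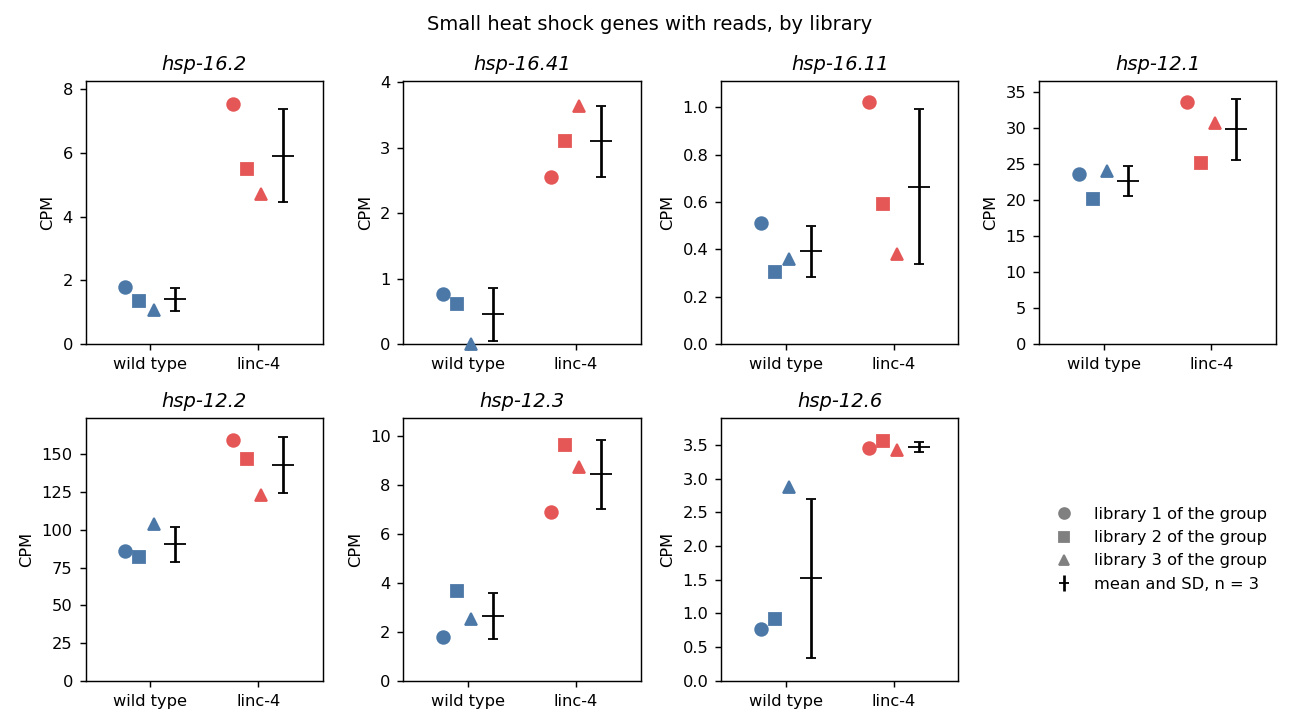
Level of the small heat shock genes with reads in each library, in CPM on axes from 0, with 1 symbol for each of the 3 wild type and 3 linc-4 libraries and a black mark at the mean ± SD of the group. hsp-16.2, hsp-16.41, hsp-12.1, hsp-12.2, hsp-12.3 and hsp-12.6 show no overlap between genotypes, and hsp-16.11 does.

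hsp-12.3, a short small heat shock gene, rose as well. It had 7, 24 and 14 reads in wild type and 54, 65 and 115 in linc-4, or 1.79, 3.65 and 2.52 CPM and 6.89, 9.63 and 8.73 CPM. Each linc-4 library lay above each wild type library. The mean went from 2.65 ± 0.933 CPM to 8.42 ± 1.39 CPM (SD, n = 3), with a log2 fold change of 1.61 (SE 0.29; limma-voom adjusted p = 0.00336), a 3.04-fold difference.

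hsp-12.6, the DAF-16 and HSF-1 target on the same strand beside it, had 3, 6 and 16 reads in wild type and 27, 24 and 45 in linc-4. In CPM these were 0.769, 0.911 and 2.88 in wild type and 3.45, 3.55 and 3.42 in linc-4. The groups did not overlap, but wild type 3 lay far closer to the linc-4 libraries than to the other wild type libraries. The log2 fold change was 1.33 (SE 0.40; limma-voom adjusted p = 0.0355), from 1.52 ± 1.18 CPM to 3.47 ± 0.0725 CPM (SD, n = 3). The call was lost on leaving out any 1 library other than wild type 3, with adjusted p from 0.0578 to 0.126. Without wild type 3 the log2 fold change was 1.90 (limma-voom adjusted p = 0.0125), and in the authors' deposited table it was 1.15 with an adjusted p of 0.122. The neighbours hsp-12.3 and hsp-12.6 had 1.80 reads of the first per read of the second in wild type (95% counting interval 1.08 to 3.06) and 2.44 in linc-4 (1.91 to 3.12), intervals that overlap.

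hsp-12.2, which gave most of the reads of the 10 genes, rose by a smaller factor. It had 334, 540 and 577 reads in wild type and 1251, 990 and 1619 in linc-4. Its levels were 85.6, 82.0 and 103.8 CPM in wild type and 160, 147 and 123 CPM in linc-4. The lowest linc-4 library was above the highest wild type library. The mean went from 90.5 ± 11.7 CPM to 143 ± 18.6 CPM (SD, n = 3), with a log2 fold change of 0.66 (SE 0.15; limma-voom adjusted p = 0.0122), a 1.58-fold difference. Leaving out wild type 1 or linc-4 2 ended the call, at adjusted p of 0.0515 and 0.0608 and log2 fold changes of 0.62 and 0.64.

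hsp-12.1, which the deposited ontology terms place at the dense bodies of striated muscle, did not pass the test. It had 92, 133 and 134 reads in wild type and 263, 170 and 405 in linc-4, or 23.6, 20.2 and 24.1 CPM and 33.6, 25.2 and 30.7 CPM. The groups did not overlap, with linc-4 2 close above wild type 3. The log2 fold change was 0.40 (SE 0.17, 95% interval 0.04 to 0.77; limma-voom adjusted p = 0.111). Body wall muscle markers lay higher in the same libraries, as given above, and their part was not tested. Set against hsp-12.2, there were 4.04 hsp-12.2 reads per hsp-12.1 read in wild type (95% counting interval 3.60 to 4.55) and 4.61 in linc-4 (4.27 to 4.97), intervals that overlap.

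Of the 10 genes, 6 were tested and 5 were called higher (hsp-16.2, hsp-16.41, hsp-12.2, hsp-12.3 and hsp-12.6), 4 of them by at least 2-fold, beside 11.5% of all tested genes called higher. Called lower were 0 of the 6, beside 7.18% of all genes; 0 were lower at an unadjusted p of 0.05 in limma-voom, and 0 in the authors' deposited table. In all 6 tested genes the genotypes did not overlap, which held in either direction for 38.8% of tested genes. These counts do not stand as support for a family-wide change. hsp-16.2, hsp-16.41 and hsp-12.6 passed the filter on low counts in all linc-4 but not all wild type libraries, and genes that did so were called higher in 28.0% of cases. The 3 genes that passed it in all libraries, hsp-12.1, hsp-12.2 and hsp-12.3, gave 2 calls. Of 7 small heat shock genes with a value in the authors' deposited table, 4 passed 0.05 as higher, beside 6.59% of its genes, at log2 fold changes of 2.07 for hsp-16.2, 2.81 for hsp-16.41, 0.64 for hsp-12.2 and 1.60 for hsp-12.3.

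**Figure D3:**
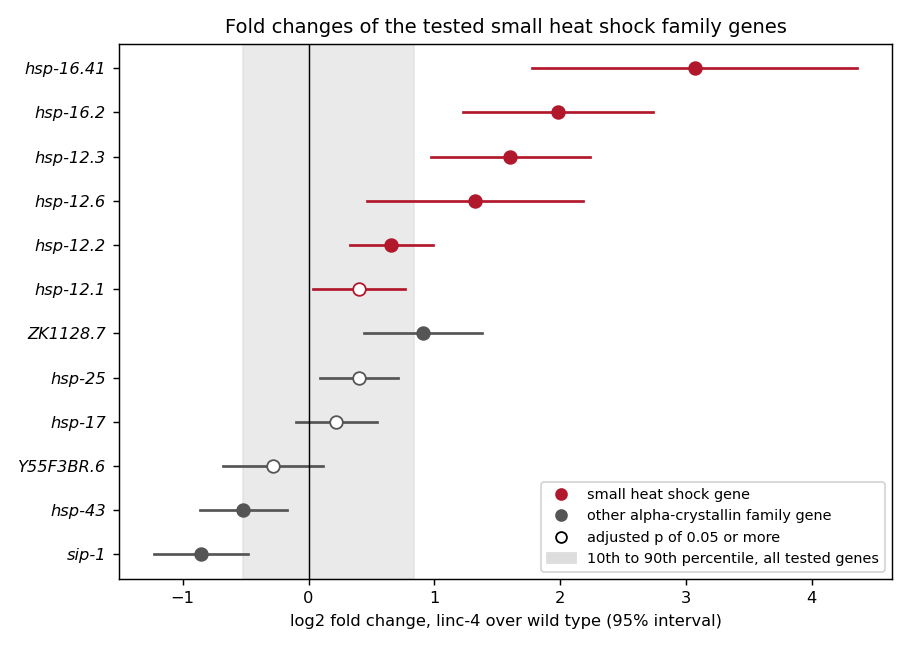
Log2 fold change of linc-4 over wild type with its 95% interval for the 6 tested small heat shock genes and the 6 tested other alpha-crystallin genes (limma-voom). Open circles did not pass an adjusted p of 0.05, and the grey band runs from the 10th to the 90th percentile of all tested genes, -0.52 to 0.84. The intervals of all 6 small heat shock genes lie above 0, from hsp-12.1 at 0.40 to hsp-16.41 at 3.07. Among the other alpha-crystallin genes, those of ZK1128.7 (0.91) and hsp-25 (0.40) also lie above 0. Those of sip-1 (-0.85) and hsp-43 (-0.52) lie below 0, and those of hsp-17 and Y55F3BR.6 cover 0.

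Among all tested genes, ranked from the highest log2 fold change, hsp-16.41 stood at place 25 and hsp-16.2 at 107. hsp-12.3 stood at 201, hsp-12.6 at 382, hsp-12.2 at 2020 and hsp-12.1 at 3340. The 10th and 90th percentiles of all log2 fold changes were -0.52 and 0.84, so 4 of the 6 lay outside that range, and those 4 were the tested genes with the lowest CPM in wild type.

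**Figure D4:**
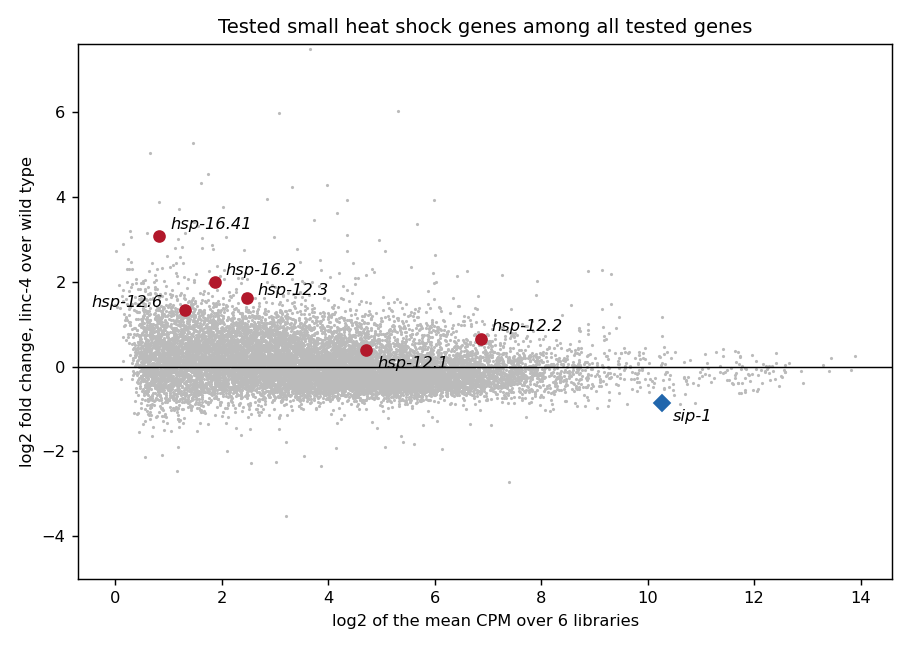
Log2 fold change of linc-4 over wild type against mean level (log2 of mean CPM over the 6 libraries) for all tested genes in grey, with the tested small heat shock genes in red and sip-1 as a blue diamond. hsp-16.2, hsp-16.41, hsp-12.3 and hsp-12.6 lie at low levels and high fold changes, and hsp-12.1 and hsp-12.2 at higher levels and smaller ones. linc-4 itself, at -7.52, is outside the drawn range.

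Per length of exon, in RPKM (CPM divided by exon length in kilobases), the 10 genes spanned a wide range of levels. In wild type hsp-12.2 was highest at 179 ± 23.1 RPKM (SD, n = 3), followed by hsp-12.1 at 46.0 ± 4.31 RPKM. hsp-12.6 at 4.56 ± 3.54, hsp-12.3 at 3.99 ± 1.40 and hsp-16.2 at 2.45 ± 0.623 RPKM came next. Neighbours in that order overlapped between libraries for hsp-12.6 and hsp-12.3 and for hsp-12.3 and hsp-16.2. Lowest among the genes with reads were hsp-16.11 at 0.824 ± 0.227 RPKM and hsp-16.41 at 0.717 ± 0.634 RPKM, which overlapped each other. The copies without reads, hsp-16.1, hsp-16.48 and hsp-16.49, are left out of this order.

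In linc-4, hsp-12.2 at 283 ± 36.9 RPKM and hsp-12.1 at 60.6 ± 8.68 RPKM (SD, n = 3) again came first. hsp-12.3 at 12.7 ± 2.096, hsp-12.6 at 10.4 ± 0.218 and hsp-16.2 at 10.2 ± 2.52 RPKM followed, and each overlapped the next. hsp-16.41 at 4.85 ± 0.853 RPKM lay above hsp-16.11 at 1.40 ± 0.687 RPKM with no overlap, unlike in wild type. The level of hsp-12.6 is uncertain on this scale, because its Ensembl model is longer than the deposited span and 333 bp of exon were used. That of hsp-16.11, and so its place in both orders, is uncertain as well. Reads it shares with other copies may have been left out, while its full exon length was used.

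Most reads of the 10 genes came from hsp-12.2. Summed over the 10 genes, the level was 120 ± 13.5 CPM in wild type and 194 ± 20.1 CPM in linc-4 (SD, n = 3), a ratio of 1.63, and the 4 hsp-12 genes alone went from 117 ± 14.1 to 185 ± 18.9 CPM. hsp-12.2 made up 74.6, 75.2 and 77.0% of the reads of the 10 genes in wild type and 74.4, 75.5 and 70.4% in linc-4. The hsp-16 genes made up 2.68, 2.09 and 1.07% in wild type and 5.17, 4.73 and 5.002% in linc-4. Each linc-4 library thus had a larger hsp-16 share than each wild type library, among reads that came largely from hsp-12 genes.

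Of 8 other genes of the alpha-crystallin family 6 were tested, of which 1 rose and 2 fell, beside 11.5% and 7.18% of all tested genes; their median log2 fold change was -0.03, beside -0.01 over every tested gene. sip-1, a small heat shock gene of oocytes and embryos, fell. It measured 1218, 1959 and 1656 CPM in wild type and 839, 867 and 912 CPM in linc-4, a log2 fold change of -0.85 (SE 0.17; limma-voom adjusted p = 0.00632) with no overlap. The summed oocyte markers lay lower in the same libraries, as given above, and their part in this difference was not tested. sip-1 had far more reads than any of the 10 genes, and hsp-12.2 had 0.0540 reads per sip-1 read in wild type (95% counting interval 0.0512 to 0.0570) and 0.158 in linc-4 (0.153 to 0.163). These intervals pool the libraries and cover counting error only, and single libraries spread more widely. In wild type, 334, 540 and 577 hsp-12.2 reads stood beside 4751, 12895 and 9209 sip-1 reads. In linc-4, 1251, 990 and 1619 stood beside 6575, 5855 and 12010.

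hsp-43, another alpha-crystallin gene, fell from 42.97 ± 4.31 to 30.1 ± 3.88 CPM (SD, n = 3), a log2 fold change of -0.52 (SE 0.16; limma-voom adjusted p = 0.0390). That call was lost in 9 of 14 alternatives, most clearly when linc-4 1 was left out (adjusted p = 0.140). ZK1128.7 rose from 18.6 ± 6.15 to 34.7 ± 5.25 CPM, a log2 fold change of 0.91 (SE 0.22; limma-voom adjusted p = 0.0137), a call lost without wild type 1 (adjusted p = 0.0663). hsp-25, which acts at muscle dense bodies, went from 30.8 ± 0.822 to 40.8 ± 0.943 CPM without overlap, at a log2 fold change of 0.40 (adjusted p = 0.0645), and passed with upper-quartile scaling (adjusted p = 0.0241). hsp-17 had a log2 fold change of 0.22 (adjusted p = 0.311) and Y55F3BR.6 one of -0.28 (adjusted p = 0.296). F08H9.3 and F08H9.4 were not tested, with 15 and 5 reads in wild type and 32 and 10 in linc-4, before scaling for depth. In CPM, F08H9.3 had 0.936 ± 0.189 in wild type and 1.06 ± 0.432 in linc-4 (SD, n = 3). F08H9.4 had 0.272 ± 0.240 and 0.336 ± 0.106 CPM, and the groups overlapped for both genes.

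A further list of 20 heat shock response genes held Hsp70, Hsp110, Hsp90 and chaperonin genes, their co-chaperones, the heat shock factor and genes whose proteins bind it, and 19 were tested. Here 2 rose and 7 fell, beside 11.5% and 7.18% of all tested genes, and the median log2 fold change was -0.39. The genes that rose were the heat-inducible Hsp70 genes F44E5.4 and F44E5.5. F44E5.4 had 1, 4 and 5 reads in wild type and 17, 16 and 49 in linc-4, a log2 fold change of 2.16 (SE 0.46; limma-voom adjusted p = 0.00767). Its value on log2(CPM + 1) was 1.24. F44E5.5, named after its values were seen, had 2, 8 and 9 reads in wild type and 25, 15 and 62 in linc-4, a log2 fold change of 1.57 (limma-voom adjusted p = 0.0284). Leaving out wild type 1 or linc-4 3 ended that call, at adjusted p of 0.101 and 0.0804, and reads of the pair, near copies of each other, may be divided between them. Both passed the filter on low counts in all linc-4 but not all wild type libraries, as did genes of which 28.0% were called higher. hsp-70, a further inducible gene named after its values were seen, was too low to test. It had 8 reads in wild type and 32 in linc-4. Scaled for library size, the ratio of these sums was 2.31 (95% counting interval 1.04 to 5.81). The groups of hsp-70 overlapped, with wild type 3 at 0.899 CPM and linc-4 1 at 0.894 CPM. An exact permutation test of its CPM, two-sided, gave p = 0.2.

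Constitutive chaperones were among those that fell. Oocyte markers (11 of 12 lower) and embryo markers (4 of 5 tested lower) fell in the same libraries, and their part in these differences was not tested. hsp-110, a partner of Hsp70, fell from 134 ± 14.1 to 80.2 ± 8.69 CPM (SD, n = 3), a log2 fold change of -0.74 (SE 0.14; limma-voom adjusted p = 0.00519). hsp-1, the constitutive Hsc70, fell from 1256 ± 158 to 827 ± 77.4 CPM, a log2 fold change of -0.60 (limma-voom adjusted p = 0.0177). hsp-90, formerly daf-21, fell from 2032 ± 772 to 1072 ± 187 CPM, a log2 fold change of -0.87 (limma-voom adjusted p = 0.0189). cct-2, a subunit of the cytosolic chaperonin, had a log2 fold change of -0.72 (limma-voom adjusted p = 0.0150). The calls of hsp-1, hsp-90 and cct-2 did not hold without linc-4 1, and those of hsp-1 and hsp-90 did not hold without linc-4 2, nor that of cct-2 without wild type 1, with adjusted p up to 0.0789. Without wild type 1, linc-4 1 or linc-4 2 the list gave 4 calls in each case in place of 9.

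**Figure D5:**
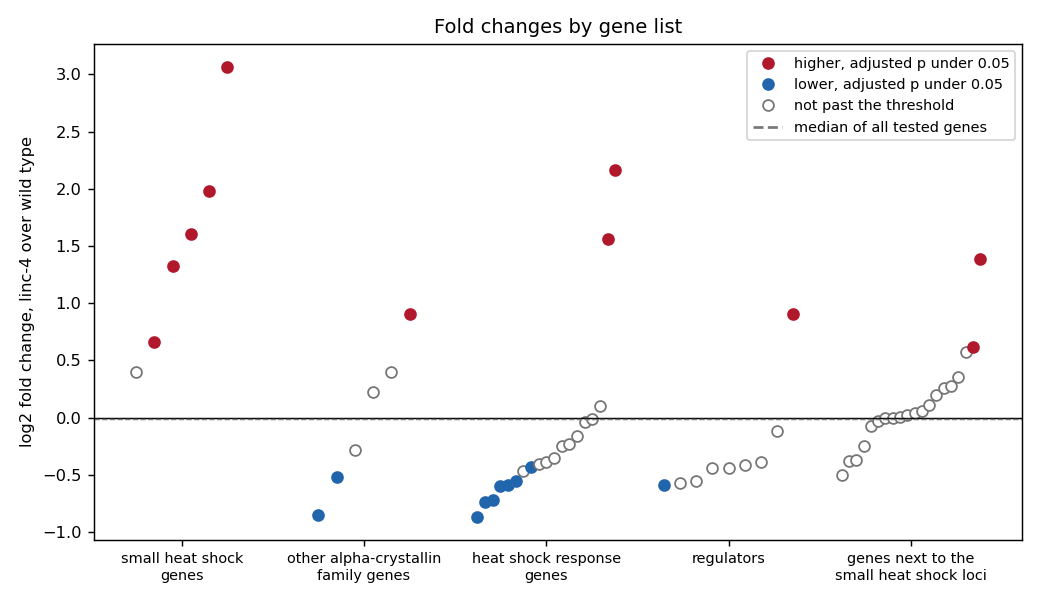
Log2 fold change of linc-4 over wild type for each tested gene of the small heat shock genes, the other alpha-crystallin genes, the heat shock response list, the regulators and the neighbours, with red points for genes called higher, blue for genes called lower (limma-voom adjusted p under 0.05) and open points for the others; the dashed line is the median of all tested genes. The small heat shock genes run from 0.40 to 3.07, and the heat shock response list from -0.87 to 2.16 with a median of -0.39.

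Of 9 regulators reported to act on small heat shock genes, all tested, 1 rose and 1 fell, near the 11.5% and 7.18% of all tested genes, and the median log2 fold change was -0.44. pqm-1, a zinc finger factor that acts opposite to DAF-16, rose from 14.5 ± 2.38 to 27.2 ± 3.71 CPM (SD, n = 3), a log2 fold change of 0.91 (SE 0.18; limma-voom adjusted p = 0.0060). skn-1, the Nrf factor of the oxidative stress response, fell from 65.0 ± 5.12 to 43.2 ± 3.36 CPM, a log2 fold change of -0.59 (SE 0.14; limma-voom adjusted p = 0.0151). For skn-1 the call ended when wild type 3 was left out, and likewise for linc-4 1 and for linc-4 2 (adjusted p of at most 0.0733). daf-16, also among the 9, had a log2 fold change of -0.39 (SE 0.17, limma-voom adjusted p = 0.124). hsf-1, which encodes the heat shock factor, and hsb-1 belong to the heat shock response list and not to these 9. hsf-1 had a log2 fold change of -0.25 (SE 0.20, 95% interval -0.69 to 0.19, limma-voom adjusted p = 0.405). hsb-1, whose protein binds HSF-1 and holds it back, had one of -0.23 (limma-voom adjusted p = 0.391). Transcript levels of these genes do not measure the activity of their proteins.

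The genes beside the small heat shock loci were examined next, with 2 tested genes on each side. Of these 20 genes 2 passed the test, both as higher in linc-4, a share near the 11.5% of all tested genes called higher, at a median log2 fold change of 0.03 and a range from -0.50 to 1.39. F21C10.10, 5402 bp from hsp-16.11, rose from 28.7 ± 2.21 to 76.1 ± 8.95 CPM (SD, n = 3), a log2 fold change of 1.39 (SE 0.16; limma-voom adjusted p = 0.000103). T27E4.7, 10970 bp from hsp-16.1 on the other side of the 4-gene locus, rose from 14.2 ± 2.42 to 21.9 ± 0.522 CPM, a log2 fold change of 0.61 (SE 0.17; limma-voom adjusted p = 0.0290), a call lost in 7 of 14 alternatives.

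Likeness of pattern was measured by Pearson r of log2(CPM + 1) over the 6 libraries, among 9102 genes whose mean count reached 50. The libraries differ by genotype and depth, and 553 genes had an r of 0.9 or more with the summed hsp-16 genes, so a high r is common here. Closest to the hsp-16 sum were B0272.4 (r = 0.998), fkb-8, a peptidylprolyl isomerase (r = 0.995), and C07B5.8 (r = 0.994). Of these C07B5.8 rose, at a log2 fold change of 1.99 (limma-voom adjusted p = 0.00103), and B0272.4 and fkb-8 did not pass, at adjusted p of 0.0670 and 0.0793. Closest to hsp-12.3 were npa-1, a lipid-binding polyprotein (r = 0.999), nspd-4 (r = 0.998) and the major sperm protein gene msp-31 (r = 0.997), with 877 genes at 0.9 or more. Sperm markers were higher in linc-4 as well, as given above, and their part in these likenesses was not tested.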

How the data were processed

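Polyadenylated RNA of 3 wild type and 3 linc-4 libraries was analysed from the authors' deposited gene table. The authors used TopHat2 2.1.1 and HTSeq 0.12.4, besides cutadapt 2.10 and also DESeq2 1.22.2, per the submitters' processing notes, which name the build WBcel235. Which settings they chose, whether counting was stranded and how it treated shared reads is not given in the sources used. The deposited table holds raw read counts, size-factor-normalized counts and the authors' own comparison with log2 fold changes and p-values. Of 46904 rows, 22389 carry raw counts and 24515 a question mark, which was read as no value.

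Raw counts were tested with limma-voom (limma 3.58.1, R 4.3.3) with TMM factors (30% of log ratios and 5% of abundances trimmed), two-sided, at a Benjamini-Hochberg adjusted p of 0.05 over 13778 genes. Genes needed 1.43 CPM, or 10 reads at the median library, in 3 libraries and 15 reads in all; tested genes held 99.7 to 99.8% of counts. The filter used CPM on plain library totals, and all other CPM values use the TMM factors. Ratios of summed linc-4 to wild type reads were scaled by the summed library sizes, with TMM factors. Reads of a gene per read of another were taken unscaled. Exact binomial intervals and permutation tests used scipy 1.17.1, and intervals and floors cover counting error only. Positions of 6 of the 10 genes equal those of Ensembl release 115. The fit was tested on simulated counts. Within a genotype, the chi-square per degree of freedom between libraries was 4.91 to 19.5, above counting noise, so none was counted as a repeat.

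The genes, the lists and the tests were chosen with earlier results of these data known. Named are every small heat shock gene, linc-4, the other alpha-crystallin genes, up to 5 called genes each of the heat shock response, regulator and neighbour lists by smallest p, and the 3 genes closest in pattern to the summed hsp-16 genes and to hsp-12.3. hsf-1, hsb-1, daf-16, hsp-70 and F44E5.5 were added after their values were seen. Alternatives were 2 other scalings, 2 other filters, limma-trend on log2(CPM + 1), the authors' comparison, a replicate block, leaving out each library, scaling without hsp genes, and a minimum log2 fold change of 1. No sequence was used here.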

Additional observations from a re-analysis of the deposited data

How the results depend on the processing

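The 5 small heat shock calls became 3 to 5 on leaving out 1 library, with 3 without wild type 1 and without linc-4 2; hsp-16.2, hsp-16.41 and hsp-12.3 passed in all 14 alternatives, and no log2 fold change of a named gene changed sign. Over all genes, 2580 calls became 1714 with the replicate block, 894 at a log2 fold change of at least 1, and 948 to 2866 on leaving out a library. Leaving out a library gave 1 to 3 calls for the other alpha-crystallin genes (3 in the full set), 4 to 9 for the heat shock response (9), 1 to 4 for the regulators (2) and 1 to 3 for the neighbours (2). A log2 fold change of at least 1 left 0, 2, 0 and 1 of these. The neighbours gave 4 calls with upper-quartile scaling, 1 with the replicate block and 1 in the authors' deposited table. The block left 4 small heat shock calls, without hsp-12.6 (adjusted p = 0.0813). Same-numbered libraries correlated in their deviations at 0.10, -0.11 and -0.41, and 1 of 6 libraries correlated best with its own number, so the numbers were not taken as pairs. The cause of these shifts was not tested, and the fits that left out a library also held fewer libraries. Low counts limit hsp-16.11 and, through the wild type libraries, hsp-16.41, hsp-16.2 and hsp-12.6, and the copies without reads allow no test. Promoter motifs and shared transcript words were planned and not run, since no sequence was used here.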
